A study of Homo sapiens with 6 samples.

Results

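The IFIT, IFITM and MX genes were examined in T24 cells after knockdown of UBC9. The genes were chosen by symbol, as 9 named genes of these 3 families: IFIT1, IFIT2, IFIT3 and IFIT5, then IFITM1, IFITM2 and IFITM3, then MX1 and MX2. All 9 were found among the 58174 genes listed for each sample. T24 is a cell line long established from a human bladder cancer. The cells carried either an shRNA against UBC9 (shRNA-UBC9, 3 samples) or a scrambled control shRNA (shRNA-NC, 3 samples). Both were stable lines made by lentiviral infection and puromycin selection, and poly(A) RNA was sequenced. A single hairpin against UBC9 was used, so the loss of UBC9 and any other action of that hairpin cannot be told apart. The sources do not say whether the 3 samples of a group were separate cultures, so p-values measure the spread between these samples, which may be technical. Values are RPKM, which scale the reads of a gene by gene length and library total.

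The members of these families are antiviral effectors that cells switch on in response to type I and type III interferon. Secreted interferon binds its receptor, the receptor-bound kinases JAK1 and TYK2 become active, and the transcription factor complex ISGF3 forms and binds the interferon-stimulated response element (ISRE) in promoters. The IFIT proteins bind viral RNA or each other and block its translation, the IFITM proteins sit in membranes and hinder the fusion of viral envelopes, and the MX proteins are dynamin-like GTPases that trap incoming viral nucleocapsids. UBC9 is the conjugating enzyme that attaches SUMO to target proteins.

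The promoter sequences are shown because the ISRE is the element through which these genes are known to respond together. RefSeq promoters (GRCh38.p14, from 250 bases before to 50 bases after the start site) were matched for 6 of the 9 genes, with 9 start sites among them. IFIT2, IFITM2 and MX2 had no entry. All 6 genes with an entry were up-regulated by the threshold given below. The members that were not, IFIT2 and IFITM2, could therefore not be compared with them. The core letters of the ISRE, searched on both strands, were GAAA, any 2 bases, and GAAA again, which read TTTC, any 2 bases, TTTC on the opposite strand. They occurred in 8 of the 9 promoters and at least 2 times in 6 of them, against 3.574% and 0.259% of all 35116 promoters. A longer form, the core followed by CT, occurred in 7 of the 9 and in 0.273% of all promoters. In the stretches below, read 5′ to 3′ on the strand of the gene, capitals mark the core letters where the whole core lies in the stretch.
IFIT1, chr10:89392487-89392549, plus strand: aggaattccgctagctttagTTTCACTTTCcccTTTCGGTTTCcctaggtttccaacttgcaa
IFIT3, first start, chr10:89327821-89327904, plus strand: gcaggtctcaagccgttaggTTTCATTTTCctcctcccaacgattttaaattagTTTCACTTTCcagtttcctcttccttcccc
IFIT3, second start, chr10:89332415-89332507, plus strand: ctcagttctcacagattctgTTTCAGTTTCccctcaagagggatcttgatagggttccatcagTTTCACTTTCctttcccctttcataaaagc
IFIT5, chr10:89414503-89414567, plus strand: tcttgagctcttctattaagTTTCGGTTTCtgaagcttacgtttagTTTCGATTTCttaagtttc
IFITM1, chr11:313980-314029, plus strand: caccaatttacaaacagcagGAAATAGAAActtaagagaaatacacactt
IFITM3, chr11:320866-320932, minus strand: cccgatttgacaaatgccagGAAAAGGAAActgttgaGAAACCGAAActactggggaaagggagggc
MX1, first start, chr21:41420559-41420588, plus strand: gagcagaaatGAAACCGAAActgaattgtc

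Most matches lay in pairs before the start site. In IFIT3 they began 156 and 122 bases before the first start and 94 and 51 bases before the second. In IFIT1 they began 116 and 103 bases before it, in IFITM3 52 and 35 bases before it, and in IFIT5 45, 19 and 4 bases before it. IFITM1 had a match beginning 40 bases before the start and another beginning 6 bases before it that ran across the start. That match lies beyond the IFITM1 stretch printed above. The last match of IFIT5 also ran across the start, so only its first bases stand at the end of the IFIT5 stretch, in lower case. The 4 promoters of the IFIT genes held their matches on the strand opposite to the gene, and those of IFITM1 and IFITM3 on the strand of the gene. MX1 differed among its 3 start sites. The first had its match just inside the transcript, the second had none, and the third had 1 match that began 196 bases before the start. A match of letters is a description of the sequence and does not show binding.

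**Figure D1:**
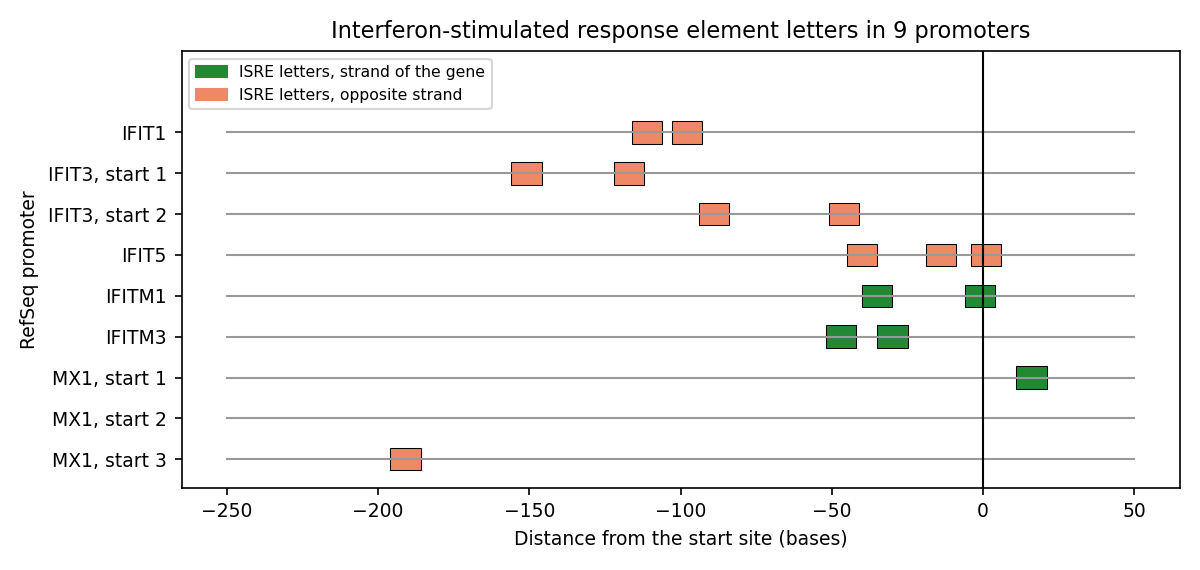
Position of the core ISRE letters (boxes, 10 bases wide) in the 9 RefSeq promoters of 6 genes, with the distance from the start site in bases on the x axis. Green boxes read on the strand of the gene and orange boxes on the opposite strand; 8 of the 9 promoters hold a box.

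The files hold no read counts, but RPKM values rise in whole-read steps, from which the libraries were estimated to hold between about 28200000 and 36100000 reads. The correlation of log2 values between samples, across tested genes, was at least 0.9785 within a group and at most 0.9432 between groups. The epithelial markers KRT7, KRT8 and KRT18 and the mesenchymal markers VIM and CDH2 were all present, with KRT7 at 556 ± 62.3 RPKM (SD, n = 3) in shRNA-NC. CDH1, KRT20 and UPK1B were at or near 0 in every sample, so these markers of differentiated epithelium and urothelium were absent.

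Knockdown of UBC9 was accompanied by higher levels of 7 of the 9 genes. With the study's threshold for differentially expressed genes (DEGs), a log2 fold change above 1 or below -1 and an adjusted p-value below 0.05, MX1, MX2, IFITM1, IFITM3, IFIT1, IFIT3 and IFIT5 were up-regulated in shRNA-UBC9, and none was down-regulated. Only the threshold was taken from the study. The calls come from a separate limma fit to log2(RPKM + 0.1), so they can differ from the study's own DEGs in number and identity. The background was 7.89% of the 12428 tested genes in either direction, 5.2% up-regulated and 2.7% down-regulated. IFITM2 also rose, by less than the fold threshold, and IFIT2 did not pass the test. Calls were repeated with each sample left out in turn (6 leave-one-out fits). All 9 genes exceeded the filter of 0.5 RPKM in each of the 6 samples, so none entered the test only through the group where it was high. The median log2 fold change of the 9 genes was 2.07, against 0.005 for all tested genes. In 8 of the 9 every shRNA-UBC9 sample lay above every shRNA-NC sample, as it did in 25.7% of tested genes (25.4% had every shRNA-UBC9 sample below). With 3 samples a group, 0.1 is the smallest p that an exact permutation test allows, and each of these 8 genes reached it. Because RNA came from whole cultures, a rise in every cell and a rise in some cells cannot be told apart.

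**Figure D2:**
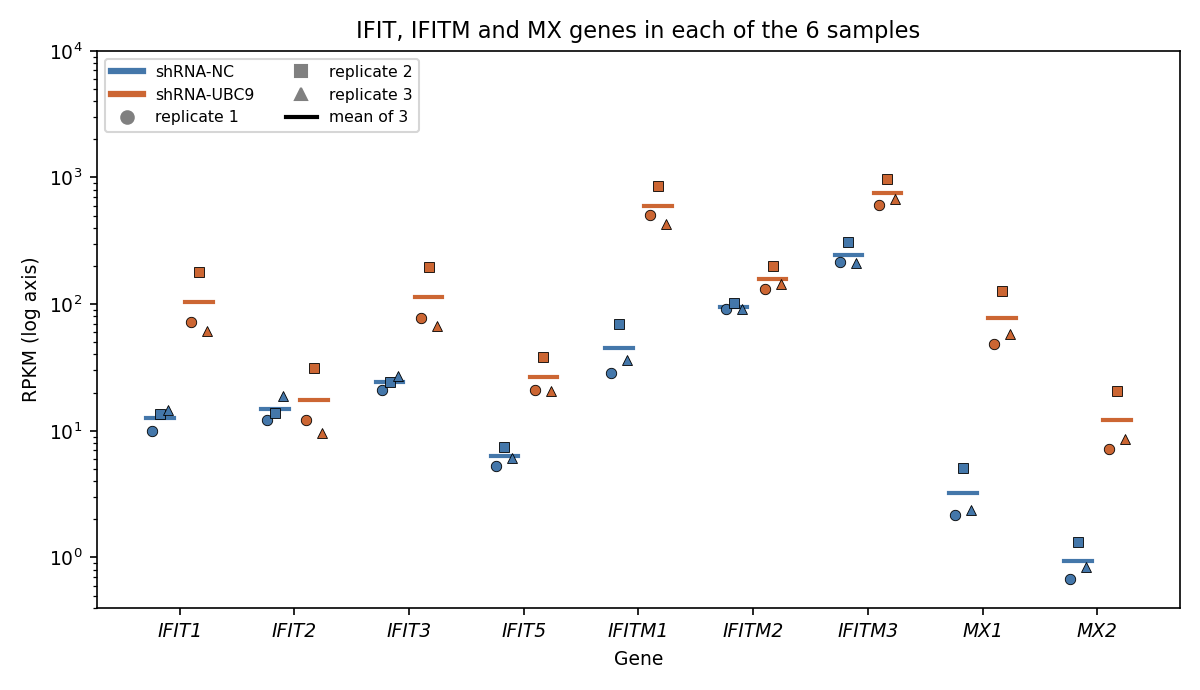
RPKM on a log axis for the 9 genes, with 3 shRNA-NC samples (blue) and 3 shRNA-UBC9 samples (orange) per gene, shapes for replicates and bars for means of 3. The groups are apart for every gene but IFIT2, and replicate 2 (squares) is the highest shRNA-UBC9 sample for all 9 genes.

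Among the IFIT genes, which lie side by side on chromosome 10, IFIT1 changed most. IFIT1, which recognizes the cap of foreign RNA, had 9.91, 13.5 and 14.5 RPKM in shRNA-NC and 72.0, 178 and 61.4 RPKM in shRNA-UBC9. The lowest shRNA-UBC9 sample was 4.25 times the highest shRNA-NC sample. Its log2 fold change was 2.88 (SE 0.36, adjusted p = 0.000757).

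IFIT3, which binds IFIT1 and strengthens its grip on RNA, had 20.8, 24.4 and 27.0 RPKM in shRNA-NC and 78.0, 197 and 67.1 RPKM in shRNA-UBC9. The groups did not overlap, and the log2 fold change was 2.07 (SE 0.35, adjusted p = 0.00302). IFIT5, which acts on its own rather than with IFIT1 and IFIT3, had 5.31, 7.40 and 6.09 RPKM in shRNA-NC and 21.0, 38.4 and 20.5 RPKM in shRNA-UBC9. It was the lowest of the 4 IFIT genes in shRNA-NC, yet its log2 fold change of 2.02 (SE 0.24, adjusted p = 0.000597) was close to that of IFIT3.

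IFIT2, a further partner of IFIT1 and IFIT3 in the same complex, stood apart from them. It had 12.2, 13.9 and 18.7 RPKM in shRNA-NC and 12.3, 31.0 and 9.61 RPKM in shRNA-UBC9. Replicate 2 of shRNA-UBC9 was the highest of all 6 samples and replicate 3 the lowest, so the groups overlapped. The log2 fold change was 0.07 (SE 0.39, adjusted p = 0.904), and its 95% confidence interval ran from -0.81 to 0.95. That interval lies below the estimates for IFIT1, IFIT3 and IFIT5 but leaves room for a change of nearly 1 in either direction. When shRNA-UBC9 replicate 2 was left out, the estimate turned to -0.43 (adjusted p = 0.138).

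The 3 IFITM genes lie within 25.8 kb on chromosome 11 and were the most abundant of the 9. IFITM1, which acts mainly at the cell surface, had 28.7, 69.4 and 36.4 RPKM in shRNA-NC and 507, 852 and 428 RPKM in shRNA-UBC9. The lowest shRNA-UBC9 sample was 6.17 times the highest shRNA-NC sample. Its log2 fold change was 3.77 (SE 0.34, adjusted p = 0.000197), and its mean moved from rank 833 to rank 35 among the tested genes.

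IFITM3, which acts in endosomes and restricts influenza virus, was already among the higher genes of the control cells. It had 215, 310 and 211 RPKM in shRNA-NC and 604, 974 and 669 RPKM in shRNA-UBC9. Its log2 fold change was 1.60 (SE 0.21, adjusted p = 0.000853), and its mean moved from rank 111 to rank 23.

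IFITM2, the endosomal relative of IFITM3, changed least within its family. It had 91.9, 102 and 91.2 RPKM in shRNA-NC and 133, 198 and 145 RPKM in shRNA-UBC9. The groups did not overlap, and the log2 fold change of 0.72 (SE 0.15, adjusted p = 0.00644) passed the test without reaching the fold threshold of 1. Across the tested genes 18.8% were higher and 18.0% lower with an adjusted p-value below 0.05 at any fold.

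The paralogs were checked for shared sequence, because the sources do not state how multi-mapping reads were treated. Of the stretches of 100 bases in the canonical IFITM3 transcript, 8.2% also occurred in a transcript of IFITM1, and 7.38% the other way round. IFITM2 shared no identical stretch with the other members, and neither did any IFIT or MX gene. Only exact matches of 100 bases were counted. Stretches that differ by a few bases, to which a read might also map, were not searched for. Values of IFITM1 and IFITM3 are uncertain to the extent that reads were split between them. For IFITM2 and the other members the extent of such splitting was not tested.

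MX1 and MX2 lie next to each other on chromosome 21 and had the lowest RPKM of the 9 genes in shRNA-NC. MX1, a cytoplasmic restriction factor against influenza and other RNA viruses, had 2.16, 5.12 and 2.38 RPKM in shRNA-NC and 48.2, 127 and 58.0 RPKM in shRNA-UBC9. The lowest shRNA-UBC9 sample was 9.41 times the highest shRNA-NC sample. Its log2 fold change of 4.53 (SE 0.41, adjusted p = 0.000184) was the largest of the 9, and 0.282% of tested genes had a larger one.

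MX2, which acts at the nuclear pore and restricts HIV-1, had 0.675, 1.32 and 0.834 RPKM in shRNA-NC and 7.17, 20.5 and 8.54 RPKM in shRNA-UBC9. The groups were far apart, with a log2 fold change of 3.43 (SE 0.38, adjusted p = 0.000462). MX2 was the member closest to the detection limit, and its lowest sample, shRNA-NC replicate 1, still held 263 reads, a counting error of 6.2%. The spread between shRNA-NC samples, a CV of 35.6%, was larger than that error. With a pseudocount of 1 in place of 0.1 the log2 fold change of MX2 was 2.63, since adding 1 to a level near 1 RPKM lowers the ratio.

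**Figure D3:**
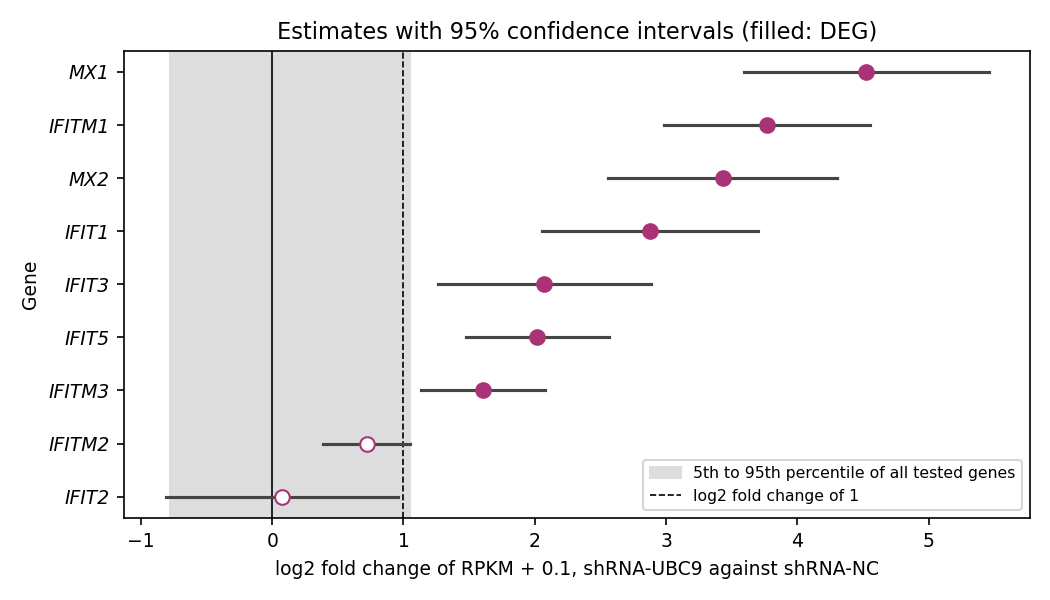
log2 fold change of RPKM + 0.1 in shRNA-UBC9 against shRNA-NC (x axis) for each gene, with 95% confidence intervals from limma and 3 samples per group; filled points are DEGs. The grey band spans the 5th to the 95th percentile of all tested genes, from -0.78 to 1.05, and 7 of the 9 estimates lie to its right.

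The changes within each family were unequal, so its composition shifted. IFIT1 made up 21.7% ± 1.13 (SD, n = 3) of the summed IFIT RPKM in shRNA-NC and 39.4% ± 0.681 in shRNA-UBC9. IFIT2 went from 25.6% ± 2.41 to 6.58% ± 0.472 of the sum. IFIT3 had 41.7% ± 1.29 and 43.1% ± 1.09, and IFIT5 10.9% ± 1.65 and 11.0% ± 2.18, so these shares moved by about as much as the samples of a group differed, or less. In the IFITM family, IFITM1 went from 11.3% ± 2.97 to 39.1% ± 4.1 of the sum, IFITM2 from 25.2% ± 3.47 to 10.7% ± 0.934, and IFITM3 from 63.6% ± 1.15 to 50.2% ± 3.22. MX1 went from 76.6% ± 2.75 to 86.8% ± 0.585 of the MX sum.

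**Figure D4:**
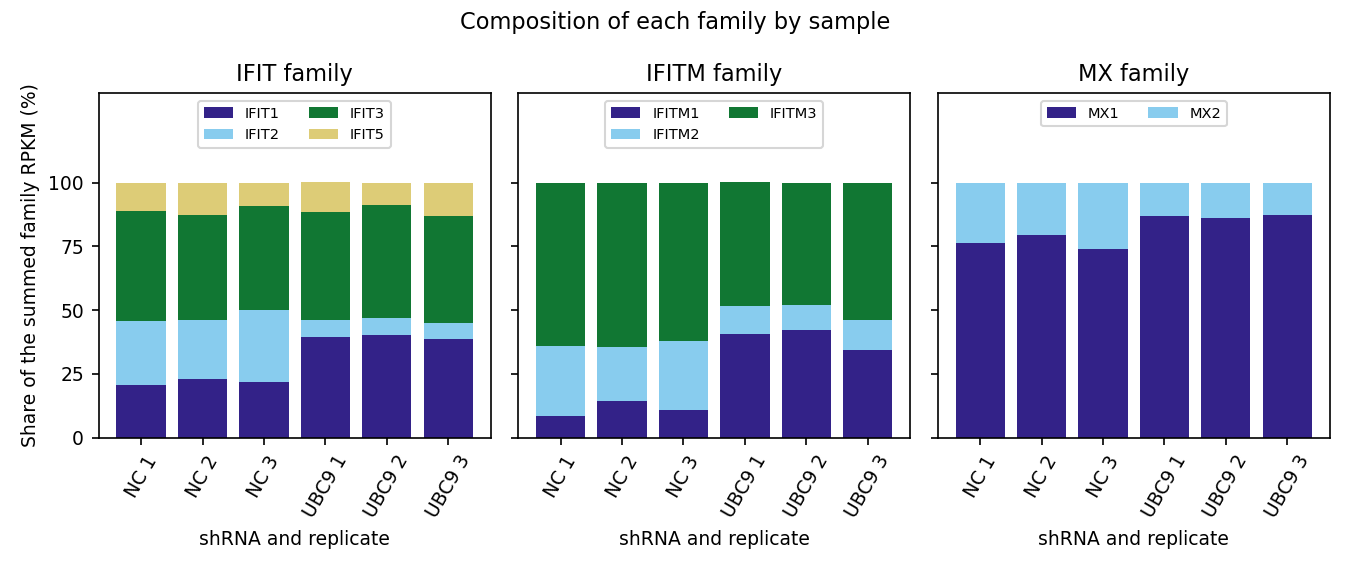
Share of each gene in the summed RPKM of its family (y axis, percent) in each of the 6 samples. Within each group the 3 samples look alike, while IFIT1 and IFITM1 take larger shares in shRNA-UBC9 and IFIT2 and IFITM2 smaller ones.

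Ratios of genes within a sample cancel scaling between samples, apart from the 0.1 added to each RPKM, which matters for low genes such as MX2. Of these ratios, 6 were compared. The log2 ratio of IFITM1 to IFITM3 was -2.53 ± 0.373 (SD, n = 3) in shRNA-NC and -0.363 ± 0.247 in shRNA-UBC9, a difference of 2.17. That of IFITM2 to IFITM3 moved the other way, by -0.886. The difference was 1.09 for MX1 to MX2, 0.861 for IFIT1 to IFIT5 and 2.92 for MX1 to IFITM3. For each of these 5 ratios the groups did not overlap (two-sided exact permutation p = 0.1, the smallest possible, and 0.12 after Benjamini-Hochberg adjustment over the 6 ratios). For IFIT3 to IFITM3 the difference of 0.469 was close to the SD of 0.44 and the groups overlapped (exact permutation p = 0.2).

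The order of levels also changed. In shRNA-NC the means ran from IFITM3 (245 RPKM) through IFITM2, IFITM1 (44.8), IFIT3 (24.1), IFIT2 (14.9), IFIT1 (12.6), IFIT5 (6.27) and MX1 (3.22) to MX2 (0.943). Of these neighbours, only IFIT2 and IFIT1 had overlapping ranges. In shRNA-UBC9 the order was IFITM3 (749), IFITM1 (596), IFITM2 (159), IFIT3 (114), IFIT1 (104), MX1 (77.8), IFIT5 (26.6), IFIT2 (17.6) and MX2 (12.1). There the ranges of neighbours overlapped except between IFITM1 and IFITM2 and between MX1 and IFIT5. Within every single sample, however, each gene was above the next one in the order of its group.

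The order rests on the gene lengths used for RPKM. The values imply a length of about 8600 bases for MX1 and 13000 bases for MX2, whereas their canonical GENCODE 44 transcripts hold 2776 and 3408 bases. For IFIT1 the lengths were 4600 and 4302 bases. If all reads came from the canonical transcripts, MX1 in shRNA-UBC9 would lie at 242 on the RPKM scale, above IFIT3 with 126 and next to IFITM2 with 243. The ratio of 2 RPKM values of a gene does not depend on its length, but the pseudocount makes the fold change of a low gene such as MX2 depend on it.

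The samples of a group were not alike. Replicate 2 of shRNA-UBC9 was the highest of its group for 9 of 9 genes, with a median of 0.844 above the group mean on the log2 scale. Over all tested genes it was the highest of its group in 30.8%. The pattern was not particular to the 9 genes. Every tested gene among the other interferon-stimulated effectors listed below was also highest there. IFI44L, for example, had 39.9, 53.3 and 25.8 RPKM in shRNA-UBC9 replicates 1, 2 and 3, and ISG15 had 480, 1026 and 501.5 RPKM. Not all pathway genes shared it, since IFNLR1 had 2.89, 2.19 and 1.88 RPKM. In shRNA-NC, replicate 2 was the highest for 6 of 9 genes, by a median of 0.249 over all 9, and was the highest for 41.2% of tested genes. In both groups MX1, MX2, IFIT5 and the 3 IFITM genes were highest in replicate 2. The labels do not say that a number marks a shared day or batch, and whether such a batch moved these genes was not tested. Without replicate 2 of both groups, a fit added after the values were seen, the same 7 genes were DEGs and the median log2 fold change of all 9 was 1.85.

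The rest of the interferon pathway was then described from lists written by hand. Of 98 listed genes, 74 were tested, 46 were up-regulated DEGs and none was a down-regulated DEG. The median log2 fold change of the 74 was 1.44. Over all tested genes 5.2% were up-regulated and 2.7% down-regulated DEGs, and the median was 0.005. These shares are also the background for the counts of each list below. Of the 74 pathway genes, 4 (IFNL1, RSAD2, CMPK2 and IRF5) did not reach 0.5 RPKM in all 3 shRNA-NC samples and were tested because of their shRNA-UBC9 values. Without them 43 of 70 were up-regulated DEGs, with a median of 1.31.

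Of the ligands, IFNB1, the main type I interferon of non-immune cells, was listed at 0 in all 3 shRNA-NC samples and at 0.484, 0.793 and 0.206 RPKM in shRNA-UBC9, which stood for 15, 24 and 5 reads. IFNL1, a type III interferon, had 0.0391, 0.0674 and 0.0690 RPKM in shRNA-NC, from 1 or 2 reads each, and 0.680, 2.38 and 0.620 RPKM in shRNA-UBC9, from 21, 72 and 15 reads. Both were highest in replicate 2 of shRNA-UBC9, as were the 9 genes and every tested gene among the other interferon-stimulated effectors. IFNL1 was the only tested ligand and passed the filter through the shRNA-UBC9 samples alone, so its fold change depends on the pseudocount. Of the 21 ligands, 13 were at 0 in every sample, including IFNG and IFNA2.

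Of the 6 receptor chains, 1 was an up-regulated DEG, namely IFNLR1, the chain specific to type III interferon. Its level was 0.966 ± 0.127 RPKM in shRNA-NC and 2.32 ± 0.518 in shRNA-UBC9 (SD, n = 3), and its log2 fold change was 1.17 (SE 0.18, adjusted p = 0.00192). IFNGR2, named after its values were seen, only just missed the fold threshold. Its log2 fold change was 0.9986 (SE 0.12, adjusted p = 0.000551), and it was a DEG in 3 of the 6 leave-one-out fits. IFNAR2 rose by less than the fold threshold, with a log2 fold change of 0.71 (adjusted p = 0.0064), and IFNAR1 had one of 0.10 (adjusted p = 0.5).

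Of the parts of ISGF3 described here, IRF9 rose by 1.52 on the log2 scale (SE 0.12, adjusted p = 0.000109) and STAT2 by 0.85 (SE 0.22, adjusted p = 0.0182), the latter below the fold threshold. The kinases moved little, with log2 fold changes of 0.31 for JAK1 (adjusted p = 0.0398), -0.03 for TYK2 (adjusted p = 0.818) and -0.01 for JAK2 (adjusted p = 0.963).

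Among 5 interferon regulatory factors, 1 was a DEG. IRF7, which amplifies interferon production and is itself interferon-induced, had 14.2 ± 1.60 RPKM in shRNA-NC and 84.1 ± 24.8 in shRNA-UBC9 (SD, n = 3), with a log2 fold change of 2.52 (SE 0.19, adjusted p = 8.3e-05). IRF3, which is activated by phosphorylation rather than by its level, had a log2 fold change of 0.27 (adjusted p = 0.0358), and IRF1 one of -0.46 (adjusted p = 0.0834).

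Of 11 tested sensors and adaptors, 6 were up-regulated DEGs. The RNA sensors DDX58 (RIG-I) and IFIH1 (MDA5) had log2 fold changes of 1.91 (SE 0.24, adjusted p = 0.000718) and 2.39 (SE 0.30, adjusted p = 0.000806). TMEM173 (STING) had one of 1.02 and was a DEG in 3 of the 6 leave-one-out fits. MB21D1 (cGAS) and TLR3 rose by 0.69 and 0.87 without reaching the threshold, and MAVS, the adaptor of the RNA sensors, fell by 0.41 (adjusted p = 0.0065).

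Of 10 tested brakes, 4 were up-regulated DEGs. ISG15 and USP18, which restrain receptor signalling and are interferon-induced themselves, had log2 fold changes of 2.34 (SE 0.26, adjusted p = 0.000481) and 2.67 (SE 0.38, adjusted p = 0.00141). SOCS3 had one of 1.02 and was also a DEG in 3 of these 6 fits. SOCS1 had one of 0.04 (adjusted p = 0.913).

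Of 35 tested other interferon-stimulated effectors, 31 were up-regulated DEGs, and their median log2 fold change was 2.25. The largest was IFI44L with 4.96 (adjusted p = 6.8e-05). RSAD2 with 4.77 and CMPK2 with 4.18 followed, but both passed the filter through the shRNA-UBC9 samples, so their fold changes depend on the pseudocount and are given as a description. Without these, 29 of 33 were up-regulated DEGs, with a median of 2.07. RSAD2 encodes viperin, and CMPK2 is its neighbour on the chromosome. The smallest among the DEGs were DDX60 with 1.01 and TRIM21 with 1.21; DDX60 was a DEG in 3 and TRIM21 in 5 of the 6 leave-one-out fits. The 4 that were not DEGs, named after their values were seen, were OASL, HERC5, ZC3HAV1 and LGALS3BP. LGALS3BP rose by less than the fold threshold, with a log2 fold change of 0.63 (adjusted p = 0.00635) and groups that did not overlap. For HERC5 and ZC3HAV1 the groups overlapped. OASL had 20.9, 13.1 and 29.2 RPKM in shRNA-NC and 14.3, 31.9 and 13.9 RPKM in shRNA-UBC9. The groups overlapped, as they did for IFIT2.

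**Figure D5:**
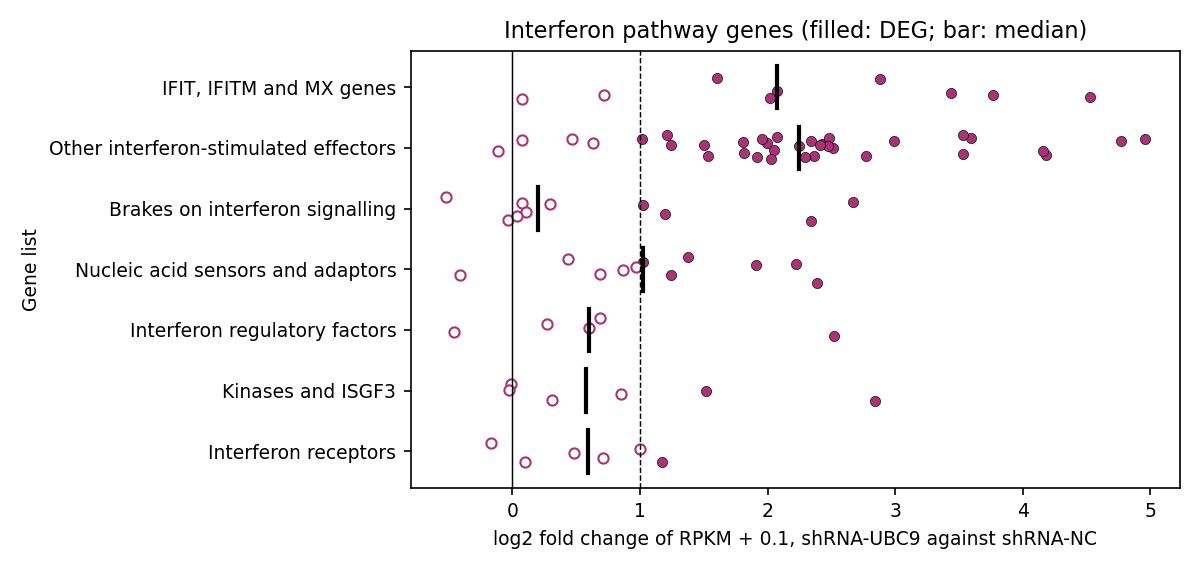
log2 fold change of RPKM + 0.1 in shRNA-UBC9 against shRNA-NC (x axis) for tested genes of 6 interferon pathway lists and for the 9 IFIT, IFITM and MX genes; each point is a gene, filled points are DEGs and the bars are medians. The medians run from 0.201 for the brakes to 2.25 for the other interferon-stimulated effectors, beside 2.07 for the 9 genes. Without RSAD2 and CMPK2, which passed the filter through the shRNA-UBC9 samples, the median of the other effectors was 2.07.

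The relatives outside the 9 genes were hardly detected. IFIT1B, which lies between IFIT3 and IFIT1, had at most 3 reads in a sample and IFITM10 at most 11, while IFITM5 and IFITM4P were at 0 throughout.

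None of the tested genes found nearest to the 3 clusters was an up-regulated DEG, against 5.2% of all tested genes. With so few neighbours this does not set them apart from other genes. Nearest was judged among genes whose symbol GENCODE 44 also uses, so a tested gene under an older symbol would be missed. Genes reaching over the end of a cluster with the higher coordinate were not searched for. The IFIT cluster spans chr10:89283694-89421605 (GRCh38). The gene model of LIPA, lysosomal acid lipase, overlaps it on the opposite strand in GENCODE 44, and LIPA had 10.8 ± 0.481 RPKM in shRNA-NC and 11.2 ± 1.42 in shRNA-UBC9 (SD, n = 3). Its log2 fold change was 0.04 (adjusted p = 0.782). Whether counting used the strand is not stated. FAS, a death receptor gene 254.1 kb before the cluster, was lower, with a log2 fold change of -1.19 (adjusted p = 0.0316), but was a DEG in 1 of the 6 leave-one-out fits. PANK1, 157.9 kb after it, fell by 0.79 (adjusted p = 0.00776), and KIF20B had a log2 fold change of -0.29 (adjusted p = 0.0718).

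The IFITM cluster spans chr11:303655-329475. Its nearest tested neighbours, PGGHG and PSMD13 before it and B4GALNT4 and PKP3 after it, had log2 fold changes from 0.22 for PGGHG (adjusted p = 0.356) to 0.53 for PKP3 (adjusted p = 0.0141), so none was a DEG. The MX pair spans chr21:41361999-41470071. RIPK4, 269.3 kb after it, fell by 1.15 (adjusted p = 0.00727) and was a DEG in 4 of the 6 leave-one-out fits. PRDM15, 328.2 kb after it, had a log2 fold change of -0.17. The nearest found before the MX pair were far away, HMGN1 at 2012.4 kb and BRWD1 at 2040.4 kb, with log2 fold changes of -0.30 and 0.10. A nearer tested gene listed under another symbol could have been missed.

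The genes most like the mean profile of the 9, by Pearson correlation of log2(RPKM + 0.1) over the 6 samples and outside all lists, were SLC15A3 (0.9987), DDX60L (0.9982), PHF11 (0.9976), DTX3L (0.9973) and MAD2L1BP (0.9972). These correlations are a description over 6 samples that share the contrast between groups. SLC15A3, a lysosomal transporter gene, had a log2 fold change of 2.29 (adjusted p = 0.000893), and DTX3L, a ubiquitin ligase that pairs with PARP9, one of 1.93 (adjusted p = 0.000401). MAD2L1BP varied over a much narrower range, with a log2 fold change of 0.31 (adjusted p = 0.0203).

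Markers of cells other than T24 stayed low beside these changes. The 12 leukocyte markers summed to between 0.675 and 1.45 RPKM in shRNA-NC and between 0.813 and 1.94 RPKM in shRNA-UBC9, neither of the 2 tested was a DEG, and MS4A1 and LILRA4 were at 0 in every sample. The 7 stromal and endothelial markers summed to between 5.22 and 6.49 RPKM in shRNA-NC and between 2.07 and 2.51 RPKM in shRNA-UBC9, and of the 4 tested, PDGFRB, ACTA2 and CDH5 were down-regulated DEGs. Of the urothelial factors GATA3 and PPARG, which were both detected, PPARG was a down-regulated DEG with a log2 fold change of -2.15 (adjusted p = 0.00169). KRT7 was also a down-regulated DEG, with a log2 fold change of -1.11 (adjusted p = 0.000578), and was a DEG in 5 of the 6 leave-one-out fits. Others fell without reaching the fold threshold: KRT8 (-0.81, adjusted p = 0.0042), KRT18 (-0.93, adjusted p = 0.000959), KRT19 (-0.99, adjusted p = 0.00698) and GATA3 (-0.79, adjusted p = 0.016). EPCAM, VIM and CDH2 did not pass the adjusted p-value. The part of these markers in the rise of the 9 genes was not tested.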

How the data were processed

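Poly(A) RNA of 3 shRNA-NC and 3 shRNA-UBC9 T24 samples was sequenced. Adaptors were trimmed and reads mapped to GRCh38 by the authors in CLC Biomedical Genomics Workbench with default settings, and gene-level RPKM was deposited by the authors. The annotation release, the strand setting and the handling of multi-mapping reads are not given in the sources used here. Samples were grouped by their titles. The analysis used log2(RPKM + 0.1) and the 12428 genes that reached 0.5 RPKM in 3 or more of the 6 samples. Fold changes are differences of these log2 values, so those of low genes are understated. The test was limma (version 3.58.1, under R 4.3.3; lmFit, then eBayes with an intensity trend), with Benjamini-Hochberg adjustment over all tested genes, and every adjusted p-value of a gene comes from it.

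Reads were recovered as whole multiples of the value of 1 read, with a tolerance of 0.002 reads, from the ratios of low values between samples, and library totals from GENCODE 44 exon lengths of 437 genes. A read may stand for a read pair. Counting errors of reads cover counting only, and confidence intervals are those of limma and cover the spread between samples. The fit was tested on simulated data for shRNA-UBC9 against shRNA-NC with 12428 genes, of which 200 were changed. Noise was normal and independent between genes and samples. Of 100 genes changed by 1.5 (log2) 89% were recovered, and of 100 changed by 3, 100%, with 8 false calls. The simulation holds no deviations shared by the genes of a sample and fewer changed genes than these data. Its false calls therefore do not carry over to them. Some genes that belong to these lists or to the design are not reported here. Genes and lists were chosen with earlier results of these data known. Named genes were the 9 genes, fixed pathway genes, the 3 largest and 2 smallest DEGs among other effectors, DEGs of lists with few, the 2 nearest tested genes beside each cluster, and the 5 most alike. Alternatives were other pseudocounts, filters, scalings and thresholds, no trend, a replicate block and leaving out samples. Python 3.11.15, numpy 2.4.6, pandas 2.3.3, scipy 1.17.1 and matplotlib 3.10.9 were used.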

Additional observations from a re-analysis of the deposited data

How the results depend on the processing

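The 7 DEGs among the 9 genes remained DEGs under each of the 15 other fits, and IFITM2 passed the adjusted p-value but not the fold threshold in each. The number of DEGs among the 9 was 7 in every fit that left out a sample and 8 without the fold threshold. The median log2 fold change of the 9 ranged from 1.72 to 2.37 when a sample was left out, lowest without shRNA-UBC9 replicate 2. IFIT2 ranged from -0.43 to 0.41 when a sample was left out and changed sign without shRNA-NC replicate 1 (-0.06), without shRNA-UBC9 replicate 2 (-0.43) and, in a fit chosen after seeing the data, without replicate 2 of both groups (-0.47); its adjusted p-value was at least 0.138 throughout. Over all genes, 981 DEGs became 552 with a pseudocount of 1 and 4576 without the fold threshold, and ranged from 926 to 1065 when a sample was left out. The difference in the log2 ratio of MX1 to MX2 went from 1.09 to 1.53 with a pseudocount of 1, because MX2 is near 1 RPKM in shRNA-NC. With a replicate block 974 genes were DEGs, 7 of them among the 9. Same-numbered samples did not deviate together (correlations of -0.367, 0.073 and -0.17 over tested genes), so the numbers were not taken to pair the samples. The highest correlation between groups, 0.526, was that of shRNA-NC replicate 1 with shRNA-UBC9 replicate 3. These were the smallest libraries of their groups, with about 29800000 and 28200000 reads. Whether depth or a batch had a part in it was not tested. DEGs in the interferon pathway lists ranged from 41 to 49, against 46. Each of the 9 genes held at least 263 reads in every sample, whereas depth limits the interferon ligands, with at most 72 reads for IFNL1 and 24 for IFNB1.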

Other observations

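The core ISRE letters (GAAA, any 2 bases, GAAA, on either strand) were also counted for all tested genes that had a RefSeq promoter entry. Each gene was represented by its promoter with the most matches, so these are shares of genes and not of single promoters. They occurred in 13.79% of 428 up-regulated DEGs with a promoter entry, in 3.67% of 245 down-regulated DEGs and in 3.93% of 9180 tested genes. At least 2 matches occurred in 4.91% of the up-regulated DEGs, in none of the down-regulated DEGs and in 0.44% of the tested genes. The core followed by CT occurred in 5.37% of the up-regulated DEGs, in none of the down-regulated DEGs and in 0.4% of the tested genes. With a share that low among tested genes, none among 245 down-regulated DEGs does not set them apart. These shares are descriptions with no test, and the up-regulated DEGs include members of the 9 genes and of the pathway lists.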
